A study of Mus musculus with 6 samples.

Results

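The genes described here are 10 genes of the secondary and tertiary granules and of late neutrophil maturation, out of 36528 gene IDs listed for each library. They are Ltf, Camp, Ngp, Lcn2, Mmp8, Mmp9, Fcnb, S100a8, S100a9 and Padi4, chosen by name and found in the files by their Entrez gene IDs, and all 10 passed the filter on low counts. Their transcripts were measured by RNA sequencing in mouse HOXB-8 cells from bone marrow, a progenitor line that a homeobox protein keeps growing. The lines labelled IRF2_KO carry a knockout of Irf2 made with a guide RNA, and the lines labelled Parental are wild type for Irf2 and carry a guide RNA against Luc. IRF2 belongs to the interferon regulatory factors, which bind DNA and switch genes on or off. Each group has 3 libraries, and strain, age, number of clones and culture conditions at harvest are not given in the labels. The extraction notes call the same cells iMACs.

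Maturing neutrophils fill their granules in waves. Promyelocytes make the azurophil granules with myeloperoxidase and elastase, myelocytes and metamyelocytes make the secondary (specific) granules with lactoferrin and cathelicidin, and band cells make the tertiary granules with gelatinase. The secondary granule genes are known to need the transcription factor C/EBP epsilon, encoded by Cebpe.

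The total count was between 29070160 and 34051219 in the IRF2_KO libraries and between 33422590 and 39925038 in the Parental libraries. Irf2 itself had 40.3, 37.0 and 40.1 CPM in IRF2_KO and 41.1, 42.4 and 41.1 CPM in Parental, a difference that missed the threshold (log2 fold change -0.08, edgeR adjusted p = 0.209). A guide RNA can break a reading frame and leave the transcript in place, so these levels do not check the labels. CPM is a read count divided by the TMM-scaled size of its library, and RPKM, the authors' deposited value, is also divided by gene length. Tests are edgeR quasi-likelihood F-tests of IRF2_KO against Parental with Benjamini-Hochberg adjustment over 13353 genes and a threshold of 0.05. The labels do not state that replicates were grown separately, so each p-value reflects how much these libraries vary, and that variation may be technical.

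The genes lie on 4 chromosomes of the mouse genome build GRCm38, and no gene model of GENCODE M21 overlaps any of them. Chromosome 9 holds 4 of them. Camp (109847379 to 109849617, minus strand, 4 exons), Ngp (110419747 to 110423012, plus strand, 4 exons) and Ltf (111019271 to 111042767, plus strand, 17 exons) lie within 1195 kb of each other there, and Mmp8 (7558456 to 7568485) lies far from them. Chromosome 2 holds Fcnb (28076378 to 28084885), Lcn2 (32384633 to 32388252) and Mmp9 (164940780 to 164955850). S100a8 (90668978 to 90670035) and S100a9 (90692632 to 90695721) are neighbours on chromosome 3, and Padi4 lies on chromosome 4 (140745865 to 140774236).

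The DNA before the start of 6 of these genes is shown because 3 of them (Ltf, Ngp and Fcnb) had the smallest adjusted p among the rises, Camp was the fall, and S100a8 and S100a9 are the pair whose levels did not pass the test. The sequences come from RefSeq on GRCm38.p6, read 5′ to 3′ on the strand of the gene, and end before the GENCODE start. They also end before the start of the RefSeq gene, except in Fcnb. There the RefSeq gene reaches to 28084910, so the last bases shown lie inside it. Capitals mark matches to the 4 motifs named after them.
Ltf, chr9:111019042-111019270: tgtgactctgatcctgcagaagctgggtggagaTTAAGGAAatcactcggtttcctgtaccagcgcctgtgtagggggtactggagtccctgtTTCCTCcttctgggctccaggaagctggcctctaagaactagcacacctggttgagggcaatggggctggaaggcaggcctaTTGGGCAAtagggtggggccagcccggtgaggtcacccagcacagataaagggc
Ngp, chr9:110419558-110419746: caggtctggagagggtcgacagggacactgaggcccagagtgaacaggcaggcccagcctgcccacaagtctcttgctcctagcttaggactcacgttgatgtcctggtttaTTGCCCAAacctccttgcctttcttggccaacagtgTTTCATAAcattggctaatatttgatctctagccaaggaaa
Fcnb, chr2:28084886-28085128: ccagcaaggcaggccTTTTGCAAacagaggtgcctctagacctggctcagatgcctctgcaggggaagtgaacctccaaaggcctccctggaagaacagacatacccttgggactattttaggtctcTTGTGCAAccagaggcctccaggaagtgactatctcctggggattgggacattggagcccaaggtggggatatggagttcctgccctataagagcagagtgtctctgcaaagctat
Camp, chr9:109849618-109849706: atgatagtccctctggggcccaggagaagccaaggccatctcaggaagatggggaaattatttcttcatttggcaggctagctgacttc
S100a8, chr3:90668821-90668977: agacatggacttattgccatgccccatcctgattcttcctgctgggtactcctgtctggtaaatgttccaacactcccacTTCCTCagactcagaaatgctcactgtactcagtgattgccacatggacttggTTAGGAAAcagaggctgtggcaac
S100a9, chr3:90695722-90695971: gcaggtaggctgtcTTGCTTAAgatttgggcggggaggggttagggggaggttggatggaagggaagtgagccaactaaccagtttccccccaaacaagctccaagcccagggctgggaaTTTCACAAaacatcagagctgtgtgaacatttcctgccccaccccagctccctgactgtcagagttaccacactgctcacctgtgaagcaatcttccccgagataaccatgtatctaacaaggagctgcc

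The motif search covered a window of 250 bases before a RefSeq start, given for 9 of the 10 genes. In Fcnb and Padi4 the RefSeq gene begins upstream of that start, so part of the window lies inside it. The C/EBP letters TTNNGNAA, searched on both strands, were in 7 of the 9 windows and in 36.8% of 32851 windows of all genes. Ngp held 3 such matches, 1 of them past the end of the stretch shown, and Ltf and Fcnb 2 each. The PU.1 letters GAGGAA, on both strands, were in 4 of 9 windows and in 23.3% of all windows. The letters AANNGAAA, the core to which IRF proteins bind, were in 0 of 9 windows on either strand and in 21.3% of all windows. The TATA box letters TATAAA, on the sense strand, were in 2 of 9 windows, those of S100a8 and Padi4, and in 7.59% of all windows. The matches in S100a8 and Padi4 lie inside the GENCODE gene models of these genes. The TATA box of S100a8, past the end of the stretch shown, adjoins a PU.1 match without sharing a base with it. The window of Camp was the only one of the 9 with none of the 4 motifs. Only 89 of its 250 bases also lie before the GENCODE start, and the rest lie inside the GENCODE gene model. Of the Lcn2 window 0 bases do, so its C/EBP and PU.1 matches, counted above, lie inside its gene model. A match is a run of letters and not a shown binding site, and a missing match says nothing about the factor outside the window.

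Levels per length spanned a wide range. S100a8 was highest, with a mean of 145 RPKM in IRF2_KO and 144 RPKM in Parental, followed by S100a9 with 93.1 RPKM in IRF2_KO and 90.2 RPKM in Parental. Mmp9 was lowest, with 0.418 RPKM in IRF2_KO and 0.264 RPKM in Parental, with 9.80% and 7.70% of tested genes at a lower level in these groups. Ltf had 5.91 RPKM in IRF2_KO and 2.26 RPKM in Parental, a low level for a defining marker of secondary granules. The order in IRF2_KO was S100a8, S100a9, Lcn2, Mmp8, Ngp, Fcnb, Camp, Ltf, Padi4 and Mmp9, with no overlap between the libraries of neighbours in the order. In Parental the order was S100a8, S100a9, Mmp8, Lcn2, Camp, Ngp, Fcnb, Ltf, Padi4 and Mmp9, in which Mmp8 (50.2 RPKM) and Lcn2 (49.0 RPKM) overlapped. Camp thus stood above Ngp and Fcnb in Parental and below both in IRF2_KO. The summed level of the 10 genes was 461, 482 and 465 RPKM in IRF2_KO and 424, 411 and 419 RPKM in Parental.

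**Figure D1:**
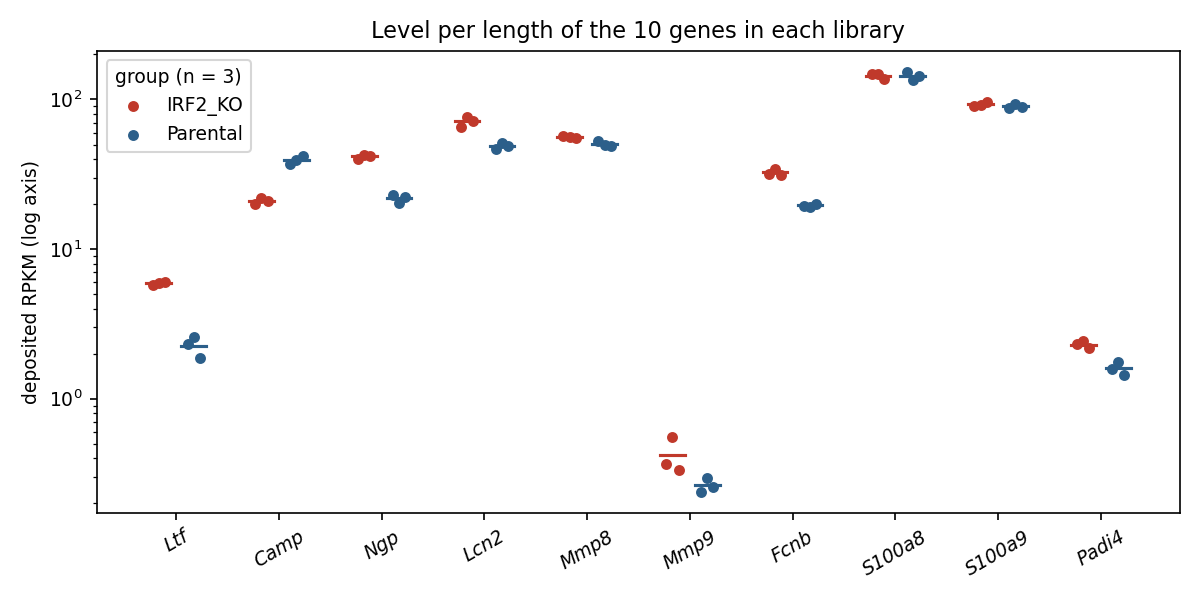
Deposited RPKM of each gene in each library on a log axis, with IRF2_KO left of Parental and lines at the mean of 3 libraries. Camp is the gene with all IRF2_KO libraries below all Parental libraries, while S100a8 and S100a9 overlap between groups.

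Of the 10 genes, 7 were higher in IRF2_KO, 1 was lower and 2 did not pass the test. Among all genes tested 23.6% were called higher and 23.6% lower, 47.2% in all, and the median log2 fold change was 0.53 over the 10 genes and -0.01 over all genes. In 8 of the 10 the groups did not overlap, against 54.0% of all genes tested. Calls were thus common in this comparison, and the 10 genes differed among themselves in size and direction. In bulk libraries, fewer cells of a type and less RNA per cell cannot be told apart.

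The secondary granule proteins come first. Ltf encodes lactoferrin, an iron-binding protein that starves microbes. It had 16.2, 16.6 and 16.9 CPM in the IRF2_KO libraries, against 6.56, 7.27 and 5.32 CPM in the Parental libraries. Every IRF2_KO library was thus above every Parental library, and Ltf was 2.61-fold higher (log2 fold change 1.38, SE 0.10, edgeR adjusted p = 1.80e-09). Ngp encodes neutrophilic granule protein, a relative of cystatins and cathelicidins in the mouse. It had 47.8, 50.5 and 50.1 CPM in IRF2_KO, against 27.3, 24.3 and 26.8 CPM in Parental. The groups were clearly apart, and Ngp was 1.89-fold higher (log2 fold change 0.92, SE 0.06, edgeR adjusted p = 4.61e-10).

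Camp encodes cathelicidin, from which the antimicrobial peptide CRAMP is cut in mice. It had 12.3, 13.4 and 12.8 CPM in IRF2_KO, against 22.8, 24.3 and 25.9 CPM in Parental. All IRF2_KO libraries were below all Parental libraries, the opposite of Ltf and Ngp on the same chromosome, and the log2 fold change was -0.92 (SE 0.07, edgeR adjusted p = 7.45e-09), a level lower by 1.90-fold. Setting genes against each other within a library removes the scaling between libraries. The ratio of Ngp to Camp, in RPKM, was 2.01, 1.95 and 2.01 in IRF2_KO, against 0.618, 0.516 and 0.534 in Parental. The ratio of Ltf to Camp was 0.288, 0.271 and 0.288 in IRF2_KO, against 0.0628, 0.0655 and 0.0449 in Parental. Both ratios separated the groups in every library, by 3.58-fold and 4.90-fold between the means. These pairs were picked for their opposite directions, so the ratios are given without a test.

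**Figure D2:**
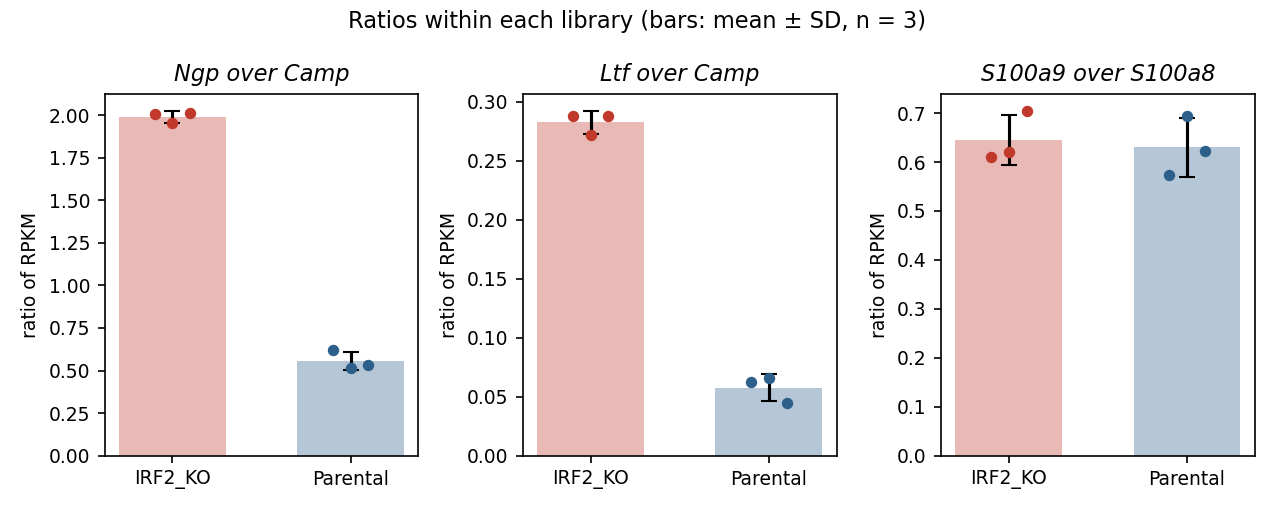
Ratio of RPKM values within each library for Ngp over Camp, Ltf over Camp and S100a9 over S100a8, with IRF2_KO left of Parental; bars are means, error bars SD, points the 3 libraries. The first 2 ratios do not overlap between groups, with mean Ngp over Camp at 1.99 in IRF2_KO and 0.556 in Parental, whereas S100a9 over S100a8 overlaps, at 0.646 in IRF2_KO and 0.630 in Parental.

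Lcn2 encodes lipocalin 2, which binds the siderophores that bacteria use to take up iron. It had 57.8, 66.2 and 63.1 CPM in IRF2_KO, against 40.8, 44.8 and 43.3 CPM in Parental. The groups did not overlap, and Lcn2 was 1.45-fold higher (log2 fold change 0.54, SE 0.06, edgeR adjusted p = 5.11e-07). Mmp8 encodes the neutrophil collagenase. It had 144, 140.0 and 139 CPM in IRF2_KO, against 132, 125 and 123 CPM in Parental. The groups were next to each other with a small gap, and Mmp8 was 1.11-fold higher (log2 fold change 0.16, SE 0.04, edgeR adjusted p = 0.00754). Without Parental 3 this call was lost (log2 fold change 0.13, edgeR adjusted p = 0.0561; adjusted p from 0.00263 to 0.0561 over all 17 alternatives).

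Tertiary granules and their contents include Mmp9 and, from work on the human ficolin of the same type, Fcnb. Fcnb encodes ficolin B, a lectin that recognises microbial sugars and starts the lectin pathway of complement. It had 64.1, 67.8 and 62.7 CPM in IRF2_KO, against 39.1, 38.4 and 40.3 CPM in Parental. Its groups were far apart relative to their spread, with a level 1.65-fold higher in IRF2_KO (log2 fold change 0.72, SE 0.05, edgeR adjusted p = 2.03e-09).

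Mmp9 encodes gelatinase B, the marker enzyme of tertiary granules. It had only 38, 55 and 39 reads in IRF2_KO and 33, 35 and 36 reads in Parental, which is 1.28, 1.92 and 1.16 CPM in IRF2_KO and 0.833, 1.04 and 0.895 CPM in Parental. IRF2_KO 2 was well above the other libraries, while the lowest IRF2_KO library was just above the highest Parental one. Mmp9 passed the test with a log2 fold change of 0.65 (SE 0.23, edgeR adjusted p = 0.0293). The call was lost with DESeq2 (adjusted p = 0.0601) and without IRF2_KO 2 (log2 fold change 0.40), Parental 1 (0.58) or Parental 3 (0.63), with adjusted p from 0.0179 to 0.198 over all 17 alternatives.

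S100a8 and S100a9 encode the calcium-binding partners that form calprotectin, a cytosolic protein of neutrophils and monocytes that withholds metal ions from microbes. S100a8 had 59.4, 59.5 and 55.0 CPM in IRF2_KO, against 61.7, 54.2 and 58.1 CPM in Parental. S100a9 had 48.5, 49.4 and 51.9 CPM in IRF2_KO, against 47.3, 50.3 and 48.3 CPM in Parental. In both genes the groups overlapped and the difference was not called (edgeR adjusted p = 0.979 for S100a8 and 0.557 for S100a9). The 95% interval of the log2 fold change ran from -0.12 to 0.11 for S100a8 and from -0.07 to 0.15 for S100a9, so changes as large as those of Ltf, Ngp, Fcnb or Camp lie outside both intervals. The sign of the S100a8 value, -0.00 on the log2 scale, turned under 7 of 17 alternatives, among them RLE factors. The ratio of S100a9 to S100a8 was 0.611, 0.621 and 0.705 in IRF2_KO, against 0.574, 0.694 and 0.622 in Parental, and the groups overlapped in this ratio as well.

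Padi4 encodes peptidylarginine deiminase 4, which converts arginine in histones to citrulline and takes part in the release of neutrophil extracellular traps. It had 6.38, 6.62 and 5.97 CPM in IRF2_KO, against 4.37, 4.90 and 3.98 CPM in Parental. The groups did not overlap, and Padi4 was 1.44-fold higher (log2 fold change 0.52, SE 0.11, edgeR adjusted p = 0.000749).

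**Figure D3:**
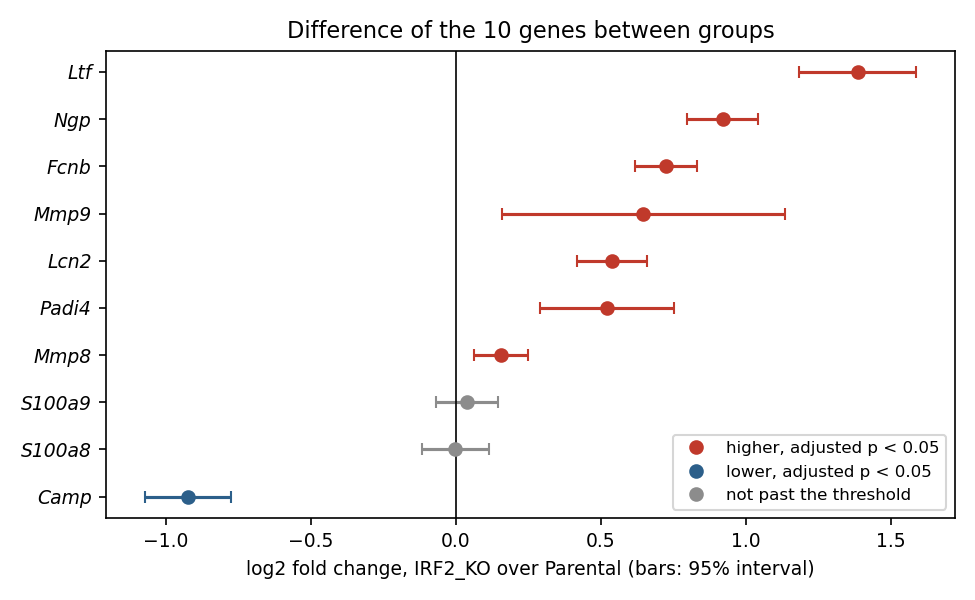
Log2 fold change of IRF2_KO over Parental for each of the 10 genes, with 95% intervals from the edgeR fit. Ltf is highest at 1.38 and Camp lowest at -0.92, Mmp9 has the widest interval (0.16 to 1.13), and the intervals of S100a8 and S100a9 include 0.

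A wider list of 48 other genes of secondary, tertiary and secretory granules and of maturing neutrophils was read in the same fit. Of the 42 tested, 28 were higher, 9 lower and 5 did not pass, where 23.6% of all genes tested were called in each direction. The median log2 fold change was 0.43, against -0.01 over all genes tested. The 6 with the smallest adjusted p were all higher. Cstdc4, a stefin-type inhibitor of cysteine proteases, had 89.0 ± 4.20 CPM in IRF2_KO and 32.0 ± 0.956 CPM in Parental (SD, n = 3 libraries each). Il1r2, the decoy receptor for interleukin 1, had 105 ± 2.36 CPM in IRF2_KO and 51.0 ± 0.802 CPM in Parental. Adam8, a membrane protease stored in granules, rose by 1.30 and Hp, the haemoglobin-binding haptoglobin, by 1.20 on the log2 scale. Itgam and Itgb2, the chains of the integrin Mac-1, rose by 0.93 and 0.92. Stefin genes lie in a cluster of similar copies, and reads that fit several of them were not counted, so the level of Cstdc4 relative to its neighbours is uncertain.

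The 9 lower genes of the wider list included Cd177, Trem1, Retnlg, Csf3r, Ifitm1, Anxa1, Trem3 and Olfm4, named after their values were seen. Cd177, a surface glycoprotein of neutrophils that secondary granules also carry in humans, had 8.19 ± 1.55 CPM in IRF2_KO and 15.7 ± 1.07 CPM in Parental. Csf3r, the receptor for the growth factor G-CSF, had 13.9 ± 0.552 CPM in IRF2_KO and 19.7 ± 0.706 CPM in Parental. Olfm4, a protein of some secondary granules, differed least and fell by 0.14 on the log2 scale. Of the 42 tested genes of the wider list, 9 lower is near the share called lower among all genes tested, 23.6%. The falls here therefore say nothing particular about that of Camp. The 5 tested genes that did not pass were Lrg1, Arg2, Ly6g, Ceacam10 and Alox5ap. The 6 genes too low to test were Itgb2l, Mmp25, Orm1, Fpr1, Fpr2 and Vnn3. Mmp25, a membrane-bound metalloprotease of mature neutrophils, had at most 1 read in any library.

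Genes listed for azurophil granules and for promyelocytes, the stage before, went both ways, with 4 of 12 higher, 4 lower and 4 not passing. They are called azurophil genes here, although not every one encodes a granule protein. These counts are near the share among all genes tested, 23.6% in each direction. The median log2 fold change was -0.02. Elane, neutrophil elastase, was the lowest, at 924 ± 72.2 CPM in IRF2_KO and 2989 ± 98.9 CPM in Parental (log2 fold change -1.69). Mpo, myeloperoxidase, and Prss57, a serine protease, fell by 0.52 and 0.19 on the log2 scale. Ctsc, the cathepsin that activates these proteases, rose by 0.95, Gstm1, a glutathione transferase, by 0.25 and Serpinb1a, an inhibitor of elastase, by 0.19. The ratio of Ngp to Elane in RPKM was 0.0445, 0.0402 and 0.0429 in IRF2_KO, against 0.00751, 0.00637 and 0.00691 in Parental. This pair was picked after values were seen. Elane fell most of the 12, so the ratio does not stand for the azurophil genes as a set.

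**Figure D4:**
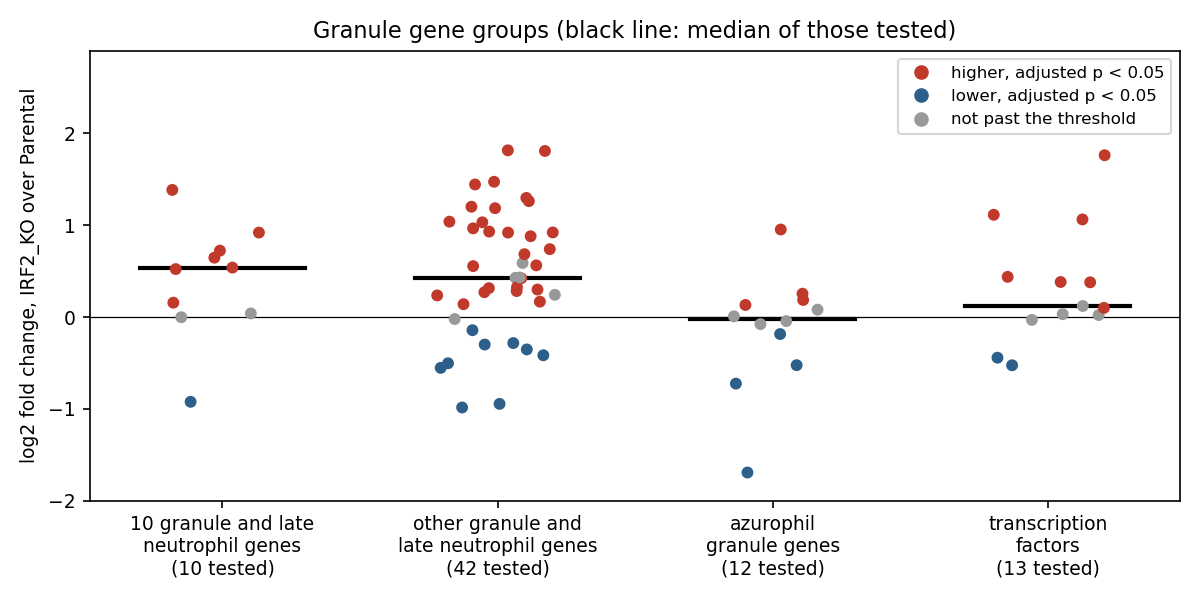
Log2 fold changes of IRF2_KO over Parental for the tested genes of 4 lists; each point is a gene, coloured by its call, and black lines are medians. The medians are 0.53 for the 10 genes, 0.43 for the wider granule list, -0.02 for azurophil genes and 0.12 for the transcription factors.

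Among transcription factors of granulocyte differentiation, 7 of 13 tested were higher, 2 lower and 4 did not pass (median log2 fold change 0.12). The share called among all genes tested was 23.6% in each direction. Cebpe had 106 ± 10.2 CPM in IRF2_KO and 104 ± 7.14 CPM in Parental, and its log2 fold change of 0.02 missed the threshold (edgeR adjusted p = 0.807). Cebpa, which starts the granulocyte programme, was lower at 57.1 ± 1.15 CPM in IRF2_KO, against 82.2 ± 0.886 CPM in Parental, and Myb, a factor of dividing progenitors, fell by 0.44 on the log2 scale. Cebpd, which is active late in granulocyte maturation, rose by 0.44. Klf5, Id2 and Irf8 rose by 1.76, 1.11 and 1.06 on the log2 scale. Irf8 favours the monocyte over the neutrophil path.

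Markers of other cells moved in the same comparison, in which 23.6% of all genes tested were called higher and 23.6% lower. Of 10 tested macrophage markers, 8 were higher and none lower, and the summed level of the 16 listed genes was 1199 to 1215 CPM in IRF2_KO and 386 to 390.3 CPM in Parental. Lpl and Gpnmb made up most of it. Csf1r, Trem2, Siglec1 and Cd68 were also called higher, with log2 fold changes of 1.96, 1.86, 4.69 and 0.72. Siglec1 had only 2 to 4 reads in the Parental libraries. Mertk and Apoe were not called. C1qa, C1qb, C1qc and Marco, also markers of macrophages, had at most 1 read each in any library. Cd163, another such marker, went the other way but was too low to test. It had 0 reads in every IRF2_KO library and 11, 2 and 10 reads in the Parental libraries. Of 8 listed progenitor markers, 4 were tested and 3 of these were lower. Mycn, a transcription factor of the Myc family, had 4.42 ± 0.188 CPM in IRF2_KO and 82.7 ± 1.49 CPM in Parental. Kit, the stem cell factor receptor, had 0.827 ± 0.181 CPM in IRF2_KO and 8.04 ± 0.145 CPM in Parental. Flt3, a cytokine receptor of progenitors, had 9.83 ± 1.18 CPM in IRF2_KO and 17.7 ± 0.699 CPM in Parental. The sum over all 8 was 143 to 159 CPM in IRF2_KO and 232 to 238 CPM in Parental. Most of it was Hoxb8, the gene of the homeobox protein that keeps this line growing. Hoxb8 was not called, at 135 ± 8.95 CPM in IRF2_KO and 127 ± 2.08 CPM in Parental. Lymphoid markers summed to at most 0.803 CPM in IRF2_KO and 0.298 CPM in Parental, with Cd3e and Ms4a1 at 0 reads throughout. Eosinophil, basophil and mast cell markers summed to 15.4 to 16.8 CPM in IRF2_KO and 16.5 to 17.9 CPM in Parental, and erythroid and megakaryocyte markers to 1.81 to 2.23 CPM in IRF2_KO and 2.02 to 2.06 CPM in Parental. The part of these shifts in the granule genes was not tested.

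The genes most like Ngp and Camp were sought among 11123 genes averaging 2 CPM or more over all libraries, as those with the smallest Euclidean distance of centred log2 CPM over the 6 libraries. Nearest to Ngp, which had the smallest adjusted p among the rises, were Ctsc, Tpd52, Phospho1, Gm2a and Cd300lb, at distances of 0.104 to 0.137. Nearest to Camp were Tmem238, Mfng, an ID without a name in the tables used here, BC029722 and Cbfa2t3, at distances of 0.0978 to 0.147. None of the 10 genes was among the 5 nearest of either. The 6 libraries form 2 groups, so the distances are a description and carry no p.

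**Figure D5:**
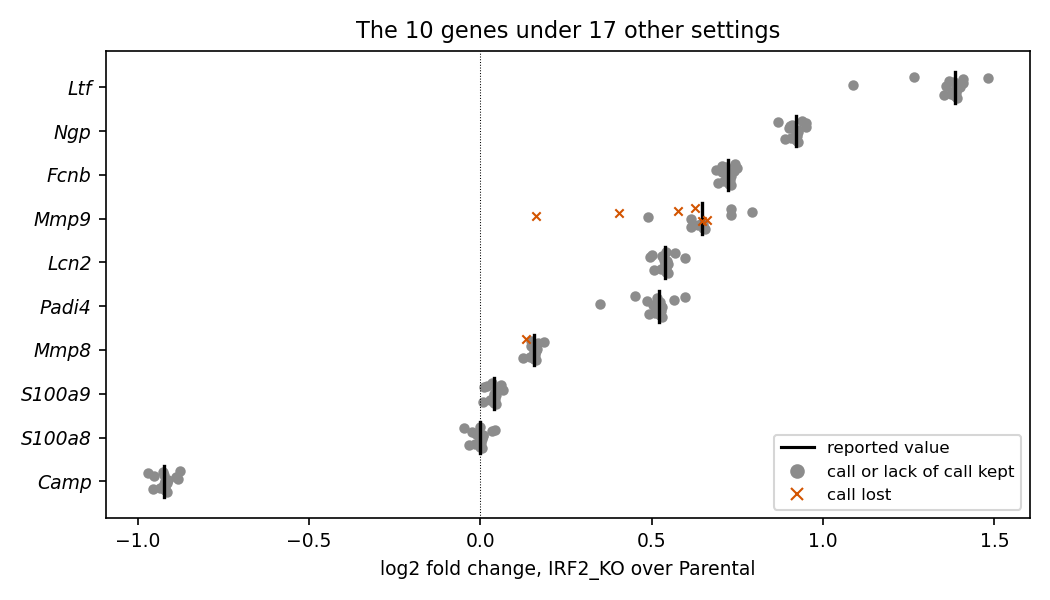
Log2 fold change of IRF2_KO over Parental for each gene under 17 alternative settings (points) beside the reported value (black line); crosses mark alternatives under which a call was lost. Crosses appear for Mmp9 (6 of 17) and Mmp8 (1 of 17), and Ltf ranges from 1.09 to 1.48.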

How the data were processed

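RNA sequencing of 6 libraries was analysed, 3 IRF2_KO and 3 Parental, grouped by their group label. Replicates are numbered in record order and pair nothing. Per the labels' protocols, libraries came from total RNA with a stranded kit, although the molecule field says polyA RNA. Per the submitters' processing notes, reads were aligned with GSNAP to GRCm38; versions, annotation and strand setting: not given in the sources used here. Per the file headers, the authors' counts are reads aligned uniquely to each gene model, and the deposited RPKM values are adjusted by a size factor per library. Over 10251 genes, RPKM per count relative to the same gene in Parental 1 took the same value for every gene of a library, so both columns hold the same measurement.

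Symbols came from a RefSeq table of GRCm38.p6 for 31049 of 36528 IDs. Counts were tested in R 4.3.3 with edgeR 4.0.16 (filterByExpr, TMM factors 0.987 to 1.02, robust quasi-likelihood F-test, two-sided). Standard errors are the log2 fold change over the root of F, and intervals use the fit's degrees of freedom. Alternatives were RLE, upper-quartile and no factors, DESeq2 1.42.0, limma-voom (limma 3.58.1), no filter, 1 CPM in 3 libraries, an adjusted p under 0.01, removal of the 100 most abundant genes, limma on log2 of RPKM plus 0.1 or 1, and each library left out. On simulated data with 13218 genes the test called 67.3% of 49 genes changed 1.25-fold and 100% of 49 changed 4-fold. False calls made up 8.65%. The simulation changed only 200 genes, while 47.2% of tested genes were called in the data. These rates may therefore not hold for the data.

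The genes and lists were chosen with earlier results of these data known. Named by rule are all 10 genes and up to 6 called genes by adjusted p of each other granule list and the transcription factors. So are the 5 nearest in pattern to the called gene with the smallest adjusted p in each direction. Marker genes of other cell types are given in counts and sums, and those named were picked without this rule. Lower genes of the wider granule list, and those that did not pass, were added after their values were seen. The letters of the IRF motif were shortened after a search with a longer form had been run, which also matched 0 of the 9 windows. The ratio pairs were picked from a larger set after values were seen, and Fcnb to Camp and Mmp8 to Mmp9 were computed and left out. Values of some listed genes are not reported here.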

Additional observations from a re-analysis of the deposited data

How the results depend on the processing

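The number of the 10 genes called higher was 7, and 5 to 7 over the 17 alternatives, with 5 without Parental 3. The number called lower was 1 in all of them. For all genes, 2468 to 3229 were called higher and 2299 to 3731 lower, and for the wider granule list 24 to 30 and 7 to 10, all within 1.5 times the reported counts. Azurophil genes called higher numbered 2 instead of 4 once the 100 most abundant genes, to which some of them belong, were removed. Those called lower ranged from 2 to 4 over the libraries left out, with 2 without Parental 3; the cause was not tested.

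Ltf, Ngp, Camp, Lcn2, Fcnb and Padi4 kept their direction and their call under all 17 alternatives. The smallest value of Ltf, 1.09, came with a pseudocount of 1 on RPKM, which shrinks low genes. The Mmp9 call was also lost at an adjusted p under 0.01 and with that pseudocount (log2 fold change 0.16). The log2 fold change of S100a8, not called under any setting, turned positive with RLE factors (0.0052), a filter of 1 CPM in 3 libraries (0.0021), DESeq2 (0.0055) and RPKM plus 0.1 or 1 (0.0088 for both), and ran from -0.049 to 0.043 over the libraries left out. Mmp9, with 33 to 55 reads a library, is the gene most limited by depth. No paired analysis was possible because the labels give no replicate numbers.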

Other observations

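The nearest protein-coding neighbours of the 10 genes on their chromosomes differed in direction. Nme6, 4.26 kb from Camp, fell by 0.53 on the log2 scale, and Cdc25a on its other side fell by 0.15. The neighbours of Ngp, Ptpn23 and Klhl18, were not called (log2 fold changes 0.08 and -0.09). Ccrl2, 11.7 kb from Ltf, fell to 0.486 CPM in IRF2_KO, against 2.17 CPM in Parental. Slc12a5, which starts 4.95 kb after Mmp9 ends, had a log2 fold change of 0.64 at 1.59 CPM in IRF2_KO and 1.02 CPM in Parental and did not pass (edgeR adjusted p = 0.0535), beside 0.65 for Mmp9 itself. Padi3, next to Padi4, rose by 0.36. The neighbours of Lcn2, 1110008P14Rik and Ptges2, were called lower, with log2 fold changes of -0.21 and -0.32, while Lcn2 rose. Zfp335, on the other side of Mmp9, was not called. Among all genes tested, 47.2% were called in either direction.

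Monocyte markers, a list of 8, were higher in 3 of 5 tested genes and lower in 1. Among all genes tested, 23.6% were called in each direction. Ccr2, the chemokine receptor of inflammatory monocytes, had 30.2 ± 3.55 CPM in IRF2_KO and 16.3 ± 0.933 CPM in Parental (SD, n = 3 libraries each). F13a1, a coagulation factor subunit made by monocytes, fell by 0.38 on the log2 scale.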
